A study of Mus musculus with 81 samples.

Results

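Clec7a and 8 related C-type lectin receptor genes (Clec12a, Clec4a1, Clec4a2, Clec4a3, Clec4d, Clec4e, Clec4n and Clec5a) were followed by their symbols through the deposited gene count tables of sorted mouse microglia, as 9 of 25124 genes. C-type lectin receptors are surface proteins of myeloid cells that bind glycans and other ligands of microbes and dying cells through a shared lectin fold. Some activate the cell: Clec7a (Dectin-1, the receptor for fungal beta-glucan) signals through its own tail, and Clec4n (Dectin-2), Clec4d (MCL) and Clec4e (Mincle) through the adaptor Fcer1g, all reaching the kinase Syk and the Card9, Bcl10 and Malt1 complex. Clec5a (MDL-1) pairs with the adaptor Tyrobp (DAP12). Others restrain the cell: Clec4a2 (DCIR) and Clec12a carry inhibitory motifs that recruit the phosphatases Ptpn6 and Ptpn11, and Clec4a1 and Clec4a3 are close relatives of Clec4a2. In the brain, Clec7a is best known as a marker of microglia that react to amyloid, demyelination and neurodegeneration, and the study also used its protein as a sorting gate.

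All mice were adult male C57BL/6, and the 81 libraries of polyadenylated RNA fell into 28 groups. Baseline groups ate a regular diet, and the others ate 0.2% cuprizone for 4, 5 or 6 weeks, a toxin that damages oligodendrocytes and so removes myelin. Baseline cells, and the whole populations of 5 weeks, were sorted for low CD11b, CD45 and CD44, with no gate on the lectin. The genotypes were WT, Trem2KO (no allele is given; Trem2 is a lipid-sensing receptor), Cx3cr1CreERT2/WT (Cre below), Cx3cr1CreERT2/WT::Mef2afl/fl (Mef2aKO) and Cx3cr1CreERT2/WT::Egr2fl/fl (Egr2KO), so the last 3 share the Cx3cr1-driven inducible recombinase, which acts in any cell that expresses Cx3cr1. At 4 weeks (WT, Trem2KO) and 6 weeks (Cre, Egr2KO), gates were CD229-CD11c- (CD229neg), CD229+CD11c- (CD229pos) and, in all but Trem2KO, CD229+CD11c+ (CD11cpos), where CD229 is the protein of Ly9 and CD11c that of Itgax. At 5 weeks (Cre, Mef2aKO), gates were negative for Clec7a, CD229 and CD11c (Clec7aneg), positive for Clec7a alone (Clec7apos), for Clec7a and CD229 (Clec7apos CD229pos) or for all 3 (triplepos). Baseline Mef2aKO cells were also sorted as CD229neg and CD229pos. Whole populations of 5 weeks came from Cre and Egr2KO mice. There were 3 libraries to a group, with these exceptions: both Trem2KO gates on cuprizone had 4, and 2 were made of each whole population, of Egr2KO baseline cells, of Mef2aKO CD229pos cells at baseline and of Mef2aKO Clec7aneg cells. Each sample pooled the brains of 2 to 6 mice, and the 3 Cre baseline libraries serve as controls at 5 weeks, at baseline and at 6 weeks.

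Total counts ran from 4387075 to 13972985 per library. The RNA of each sorted marker was higher in its positive gate in every such comparison (Ly9 by 2.29 to 3.42 and Itgax by 1.60 to 2.34, log2). Trem2 was 1.85 to 2.06 lower (log2) in Trem2KO. Mef2a counts did not pass the test in libraries labelled Mef2aKO (-0.17 to 0.17), and Egr2 counts passed in the whole populations (-1.61) but not in the gates labelled Egr2KO (-0.88 to 0.04). These counts cover whole transcripts, and the deleted parts are not given in the sources used here, so for Mef2a and the Egr2 gates they do not check the labels. The 8 microglia markers summed to 5384 to 12760 CPM (counts scaled to the library's total) in every library, T and NK cell markers to at most 1.32, neutrophil markers to at most 20.3, monocyte markers to at most 34.6, B cell markers to at most 29.2 and dendritic cell markers to at most 10.6. Nearly all of the B cell sum was Cd79b: the group means of Cd79a and Ms4a1 were at most 0.349 CPM. The 8 markers of border macrophages (the macrophages of meninges and vessels) ranged from 1.97 to 192.5 CPM and differed between gates. In WT baseline libraries they summed to 3.34, 49.9 and 53.9 CPM while Clec7a stood at 26.5 CPM in each. Between some gates they rose with Clec7a, as from Cre Clec7aneg (11.0 to 14.3 CPM) to Clec7apos libraries (62.8 to 105). Between others they fell while Clec7a rose, as from WT CD229pos (55.3 to 131 CPM) to CD11cpos libraries (23.1 to 49.8). Their part in the Clec7a results was not tested. The sums are given below beside Clec12a, Clec4n and Clec4a1, which moved with them or shared their gates.

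All 9 genes lie on chromosome 6 (mm10). Clec5a stands alone at 40574898 to 40585805. Clec4a1, Clec4a3, Clec4a2, Clec4n, Clec4d and Clec4e follow one another from 122921848 to 123289871, and Clec12a (129350244 to 129365303) and Clec7a (129461591 to 129472785, minus strand) lie together further along. Clec4a2 and Clec4a3 moved together across the groups while Clec7a went the other way, so the 250 bases before the transcription start of these 3 genes are shown, 5′ to 3′ on the gene's strand, from RefSeq's promoters on GRCm38.p6. They were read from chr6:129472786-129473035 (minus strand), chr6:123122440-123122689 (plus strand) and chr6:122952394-122952643 (plus strand). Capitals mark the only match found in them.
Clec7a promoter: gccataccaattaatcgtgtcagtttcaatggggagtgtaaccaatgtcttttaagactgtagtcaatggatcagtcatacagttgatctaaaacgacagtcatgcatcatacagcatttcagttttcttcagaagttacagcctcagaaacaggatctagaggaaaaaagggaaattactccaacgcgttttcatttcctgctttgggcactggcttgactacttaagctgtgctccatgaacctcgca
Clec4a2 promoter: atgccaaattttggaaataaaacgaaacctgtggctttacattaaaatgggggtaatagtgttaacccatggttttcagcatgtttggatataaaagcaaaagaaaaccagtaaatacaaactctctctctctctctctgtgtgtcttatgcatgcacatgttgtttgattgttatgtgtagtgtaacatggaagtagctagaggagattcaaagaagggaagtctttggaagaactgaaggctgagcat
Clec4a3 promoter: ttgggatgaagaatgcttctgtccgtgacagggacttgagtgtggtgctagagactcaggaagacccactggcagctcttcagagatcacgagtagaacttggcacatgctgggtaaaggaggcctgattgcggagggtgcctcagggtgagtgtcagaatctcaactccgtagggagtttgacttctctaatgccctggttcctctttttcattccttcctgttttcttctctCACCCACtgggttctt
The RefSeq start of Clec4a2 shown here is 626 bases from the start of the transcript in the count tables. Motifs of 5 factor families were searched on both strands: TGANTCA (AP-1), AGGAAGT (PU.1), GTGGGNG (EGR), CACGTG (the E-box of the MiT/TFE factors) and TGTGGTT (RUNX). Of 32851 promoters in the table, 6.75%, 7.69%, 28.1%, 6.02% and 4.4% hold them. The Clec4a3 window holds an EGR match (CACCCAC on the printed strand) at 16 to 10 bases before the start, and those of Clec7a and Clec4a2 hold none of the 5. The other matches among the 8 genes with an entry were AP-1 for Clec12a and RUNX for Clec4a1 and Clec5a.

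Clec7a had the widest range of the 9 genes. Its group means ran from 4.14 CPM in Trem2KO baseline cells to 772 in WT CD11cpos cells, a 186-fold span, and no library was at 0. WT baseline libraries held 26.5, 26.5 and 26.5 CPM, WT CD229neg libraries at 4 weeks 211, 219 and 327, CD229pos libraries 594, 621 and 564, and CD11cpos libraries 778, 747 and 793. The 4 groups did not overlap. Against baseline, CD229neg cells were higher by 3.29 ± 0.12 (log2, SE; adjusted p = 7.17e-18, edgeR's quasi-likelihood test with Benjamini-Hochberg adjustment over all genes, as for every adjusted p below). The CD229 step, CD229pos against CD229neg, added 1.26 ± 0.10 (adjusted p = 4.78e-11), and the CD11c step, CD11cpos against CD229pos, a further 0.37 ± 0.10 (adjusted p = 0.00565). Without WT CD229pos replicate 3 the last call was lost (0.30, adjusted p = 0.0566). In the diet comparison 3 of the 7 genes that could be tested were called (30.4% of all genes tested), in the CD229 step 3 (48.8%) and in the CD11c step 3 (23.3%). Clec4d and Clec4e fell below the filter on low counts. The diet comparisons set a gated cuprizone population against ungated baseline cells, so diet and gate cannot be told apart in them.

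At 5 weeks the protein itself was a gate. Cre baseline libraries held 33.6, 35.3 and 28.2 CPM of Clec7a RNA, and Clec7aneg libraries 147, 179 and 168. Cells sorted as lacking the protein thus held more of the RNA than baseline cells, by 2.32 ± 0.12 (adjusted p = 5.44e-17, with 5 of 7 genes called, against 28.8% of all genes). Clec7apos libraries held 533, 582 and 541 CPM, which follows the sort and is given as a description only. Past that gate little was added: Clec7apos CD229pos libraries held 607, 615 and 539 CPM, 0.08 ± 0.10 above Clec7apos (adjusted p = 0.685), where 2 of 7 genes were called (5.53% of all genes). Triplepos libraries held 732, 728 and 713, higher by 0.30 ± 0.10 (adjusted p = 0.0333, with 3 of 7 called, against 14.1%). That last call was lost without Clec7apos CD229pos replicate 1 or 3 or any of the 3 triplepos libraries (0.24 to 0.33, adjusted p up to 0.162).

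At 6 weeks, with no Clec7a gate, both later steps were larger. Cre CD229neg libraries held 114, 145 and 144 CPM, CD229pos libraries 333, 426 and 347, and CD11cpos libraries 786, 662 and 537. The step from baseline was 2.02 ± 0.16 (adjusted p = 1.71e-09, with 2 of 7 called, against 5.85%), the CD229 step 1.45 ± 0.15 (adjusted p = 1.21e-07, with 4 called, against 17.2%) and the CD11c step 0.86 ± 0.15 (adjusted p = 1.02e-04, with 4 called, against 17.2%). The titles of 2 of the 3 libraries in each 6-week gate carry a PE150 tag that is not explained. Within tagged libraries the CD229 and CD11c steps of Clec7a were 1.43 and 0.63, both called. Each gate held 1 untagged library, and between these the steps were 1.52 and 1.27, with no spread within a gate. Over the 6 comparisons of a cuprizone gate with its baseline, Clec7a was higher in 6, and over the 12 gate steps other than its own it was higher in 9. The other 3 estimates lay at 0.08 and 0.10 for the CD229 steps at 5 weeks and 0.19 for the CD11c step of Mef2aKO, with SE 0.10 each. In bulk samples, more cells of a kind and more RNA per cell cannot be told apart.

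**Figure D1:**
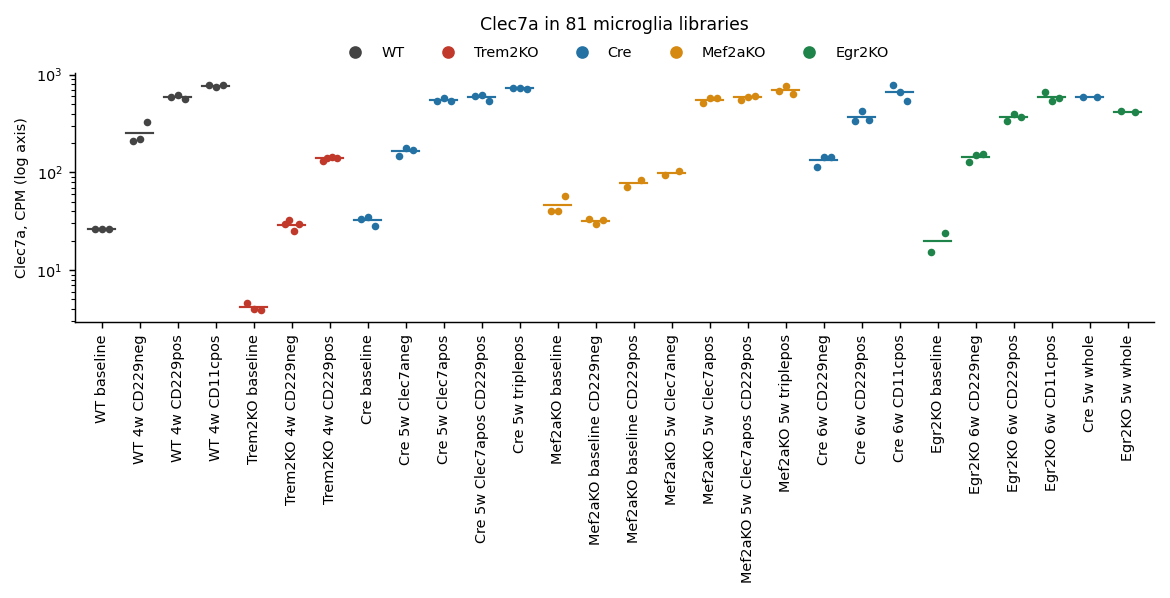
Clec7a in CPM (log axis) in each of the 81 libraries, by group, with points for libraries, bars for group means and colours for genotypes. WT rises from 26.5 CPM at baseline to 747 to 793 in CD11cpos cells, and the 3 Trem2KO groups lie below their WT counterparts.

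Clec7a was lower without Trem2 in each population measured. Trem2KO baseline libraries held 4.596, 3.96 and 3.87 CPM, CD229neg libraries 29.7, 32.4, 25.1 and 29.3, and CD229pos libraries 131, 141, 145 and 140.1. None overlapped the WT group of the same gate. The difference from WT was -2.65 ± 0.18 at baseline (adjusted p = 1.28e-10), -3.14 ± 0.10 in CD229neg (adjusted p = 2.45e-18) and -2.16 ± 0.09 in CD229pos cells (adjusted p = 1.69e-16). At baseline Clec7a was the only one of 7 genes called (0.577% of all genes), in CD229neg 3 were called (20.3%) and in CD229pos 4 (52.5%). Clec7a was still higher in reactive cells without Trem2: CD229neg cells exceeded Trem2KO baseline by 2.81 ± 0.17 (adjusted p = 2.45e-11, the only call among the 7, against 7.28%), and the CD229 step was 2.24 ± 0.10 (adjusted p = 9.17e-15, with 5 of 7 called, against 27.5%). The difference between the genotypes' diet steps did not pass (-0.48 ± 0.23, adjusted p = 0.24, with 3.95% of all genes passing). The CD229 step was larger in Trem2KO by 0.97 ± 0.14 on the log2 scale (adjusted p = 1.77e-05, with 3 of 7 called, against 14.8%). Group means went from 29.1 to 139 CPM in Trem2KO and from 252 to 593 in WT, so the step was larger as a ratio and not in CPM. Trem2KO CD229neg cells, at 29.1 ± 3.02 CPM (SD, n = 4), were near WT baseline cells (26.5 ± 0.0268, n = 3), and their ranges overlapped.

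Libraries labelled Mef2aKO differed from Cre in Clec7a in baseline and Clec7aneg cells, and no difference passed the test in the 3 Clec7a-positive gates. At baseline they held 40.4, 40.5 and 56.8 CPM, above all Cre libraries (0.51 ± 0.12, adjusted p = 0.0105; 2 of 7 called, against 3.84%). This call was lost without Cre baseline replicate 3 (0.41, adjusted p = 0.055), without Mef2aKO baseline replicate 3 (0.32, adjusted p = 0.111), and with only the 2 groups in the fit (0.50, adjusted p = 0.239). In Clec7aneg cells at 5 weeks the order was the reverse: 94.1 and 104 CPM, below every Cre library (-0.70 ± 0.12, adjusted p = 1.52e-04; 3 of 7 called, against 5.53%). The rise from baseline was accordingly 1.11 ± 0.12 in Mef2aKO (adjusted p = 7.80e-08; 2 of 7 called, against 7.85%), smaller than in Cre by 1.21 ± 0.17 (-1.21 as Mef2aKO minus Cre, adjusted p = 9.67e-05; 1 of 7 called, against 1.39%). In Clec7apos cells (510, 579 and 572 CPM) the difference from Cre was 0.01 ± 0.10, in Clec7apos CD229pos cells (557, 593 and 606) 0.02 ± 0.10 and in triplepos cells (679, 773 and 631) -0.09 ± 0.10, none called (adjusted p = 0.985, 0.943 and 0.806). In those 3 gates 3.7%, 4.9% and 4.69% of all genes were called. The gates of 5 weeks were set by the Clec7a protein, so Clec7a levels within them also depend on the sort. The step across the Clec7a gate was larger in Mef2aKO by 0.71 ± 0.15 (adjusted p = 0.00673, with 1 of 7 called, Clec7a itself, against 1.95%). As that gate sorts on the gene's own protein, this is given as a description only. Without Mef2aKO Clec7aneg replicate 1, which leaves 1 library in that group, the difference was 0.65.

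Mef2aKO baseline cells sorted on CD229 gave the one view of that step without cuprizone. Clec7a was 33.4, 29.5 and 32.7 CPM in CD229neg and 70.0 and 83.9 in CD229pos libraries, a step of 1.28 ± 0.14 (adjusted p = 0.00134), and the only one of 6 genes called (0.15% of all genes). Without CD229pos replicate 2, which leaves 1 library in that gate, the step was 1.21. Libraries without the PE150 tag, 1 in each gate, gave 1.12. Tagged libraries, with 1 in CD229pos, gave 1.40. None of these fits holds a spread between CD229pos libraries, so the call rests on both of them. Against ungated Cre baseline cells the CD229pos cells were also higher, by 1.28 ± 0.14 (adjusted p = 1.86e-04; 2 of 6 called, against 1.59%).

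Libraries labelled Egr2KO were lower in Clec7a than Cre in the whole population, and no difference passed the test in the sorted gates. At 6 weeks Clec7a was 128, 150.3 and 154 CPM in CD229neg, 339, 397 and 369 in CD229pos and 672, 543 and 571 in CD11cpos libraries. Each group overlapped its Cre counterpart, and the differences were 0.14 ± 0.15, 0.04 ± 0.15 and -0.15 ± 0.14 (adjusted p = 0.855, 0.923 and 0.781). Of all genes, 0.19%, 2.46% and 0.25% were called in these gates. The whole cuprizone populations of 5 weeks, not gated on CD229, CD11c or Clec7a, held 596 and 593 CPM in Cre and 421 and 418 in Egr2KO libraries, lower by 0.55 ± 0.07 on the log2 scale (-0.55, adjusted p = 0.00132, with 2 residual degrees of freedom), the only call among 5 genes tested (0.92% of all genes). Egr2KO baseline libraries held 15.3 and 23.96 CPM, below the Cre libraries without passing the test (-0.74 ± 0.20, adjusted p = 0.177; 0.182% of all genes passed). Without a filter on low counts (adjusted p = 6.07e-05), with DESeq2 (0.029), without Cre baseline replicate 3 or without Egr2KO baseline replicate 2 (-1.09, adjusted p = 0.0497) it passed. Both Egr2KO baseline libraries carry the PE150 tag and no Cre baseline library does, so tag and genotype cannot be told apart within this pair of groups. With the tag as a covariate, estimated from the other groups of the fit, the difference was -0.69 ± 0.22 (adjusted p = 0.255). The steps within Egr2KO were 2.91 ± 0.20 from baseline, 1.34 ± 0.15 for CD229 and 0.67 ± 0.15 for CD11c (adjusted p = 8.13e-11, 2.72e-07 and 0.00269). They called 1, 4 and 3 of 7 genes, against 8.23%, 27.5% and 11.7% of all genes.

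Ranked by mean CPM, WT CD11cpos cells came first and did not overlap the next group, Cre triplepos (724 ± 10.1, SD, n = 3). Of the 27 neighbouring pairs in this order, 10 did not overlap, most of them in the lower part. From Cre triplepos to Cre Clec7apos (552 ± 26.1, n = 3) each of the 10 groups overlapped its neighbour, a run of positive gates from control and knockout mice with the whole Cre population among them. Below it came the whole Egr2KO population and the 6-week CD229pos gates, then the negative gates, then baseline cells, with Trem2KO CD229pos cells among the negative gates and Trem2KO CD229neg cells among the baseline groups. Across the 28 group means, 9486 genes with a mean of at least 5 CPM were compared with Clec7a in log2 CPM. Left out were the genes described here, Ly9, Itgax, mitochondrial genes, small RNAs and genes with provisional names. Genes whose listed transcript differed between count tables were also left out, while Clec7a, for which it differed, was kept. The closest were Axl (Pearson r = 0.992), Gas2l3 (0.981), Bhlhe40 (0.980), Lgals3 (0.979) and Cdk18 (0.978). The furthest in the other direction were Ppp1r2 (-0.949), Zc3h4 (-0.947) and Slc8a1 (-0.942). By rank correlation only Axl (0.985) stayed among the closest 5. Axl is a receptor for dying cells and Lgals3 a galectin, both known from reactive microglia. The groups share control libraries and cuprizone response, so these values only describe likeness.

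Clec4a2 and Clec4a3, the inhibitory DCIR and its relative, moved against Clec7a over most gates and with each other. Across the 28 group means the 2 correlated at 0.966, and with Clec7a at -0.773 and -0.774. Reads of these close paralogs can be shared by the counting, so single levels of the Clec4a genes are uncertain. Clec4a2 was 58.3, 62.6 and 60.4 CPM in WT baseline, 46.4, 44.3 and 32.9 in CD229neg, 5.79, 6.10 and 8.44 in CD229pos and 22.7, 23.1 and 14.8 in CD11cpos libraries. No 2 of these 4 groups overlapped, and the level was lowest in CD229pos cells. Clec4a3 followed the same course: 58.4, 68.9 and 63.4 CPM, then 40.3, 44.1 and 40.2, then 13.1, 11.3 and 12.4, then 26.2, 30.1 and 22.0. From baseline Clec4a2 changed by -0.51 ± 0.13 (adjusted p = 0.00445) and Clec4a3 by -0.57 ± 0.09 (adjusted p = 1.42e-05). At the CD229 step they fell by 2.56 ± 0.18 and 1.73 ± 0.11 on the log2 scale (adjusted p = 4.73e-12 and 8.85e-13). At the CD11c step they rose again, by 1.55 ± 0.19 and 1.07 ± 0.11 (adjusted p = 7.31e-07 and 7.01e-08). Cd79b, listed as a B cell marker, followed the same course (-0.76 ± 0.15 and 0.41 ± 0.15, from 19.5 through 11.2 to 15.1 CPM), with Cd79a and Ms4a1 near 0 as given above. Zbtb46, listed for dendritic cells, did too (-0.90 ± 0.30 and 1.02 ± 0.30). The 4 dendritic cell markers together summed to 4.74 to 7.55 CPM in CD229neg, 2.91 to 3.85 in CD229pos and 4.39 to 7.52 in CD11cpos libraries. The part of these cells in the Clec4a2 and Clec4a3 results was not tested.

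The same dip was present at 5 weeks, in steps that start from Clec7a-positive cells. Across the Clec7a gate of Cre cells Clec4a2 changed from 47.7, 43.7 and 47.6 to 20.8, 18.8 and 24.5 CPM (-1.08 ± 0.13, adjusted p = 6.40e-08) and Clec4a3 from 49.9, 40.0 and 43.5 to 24.2, 25.6 and 22.3 (-0.83 ± 0.11, adjusted p = 4.73e-07). That gate called 4 of 7 genes, Clec7a itself included, against 37.9% of all genes. The CD229 step then took Clec4a2 to 5.62, 7.14 and 9.27 CPM (-1.52 ± 0.16, adjusted p = 4.63e-07) and Clec4a3 to 14.1, 16.9 and 16.6 (-0.61 ± 0.13, adjusted p = 0.0022). Triplepos cells were back at 20.4, 15.7 and 21.2 and at 35.7, 27.2 and 31.3 CPM (1.37 ± 0.16 and 0.99 ± 0.12, adjusted p = 1.64e-07 and 3.32e-07). The lowest Clec4a2 levels of the series were thus in cells with CD229 and without CD11c, in WT at 4 weeks and in Cre and Mef2aKO mice at 5 weeks (group means 6.78, 7.35 and 7.89 CPM). From baseline to Clec7aneg, Clec4a3 changed by -0.58 ± 0.10 (adjusted p = 4.85e-05) and Clec4a2 by -0.34 ± 0.12 (adjusted p = 0.0282), a call lost without Cre baseline replicate 1 or any Clec7aneg replicate (adjusted p up to 0.16).

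At 6 weeks the levels declined stepwise, without the dip. Clec4a2 in Cre cells was 55.5, 57.5 and 49.3 CPM in CD229neg, 41.8, 37.0 and 40.5 in CD229pos and 20.7, 21.0 and 26.2 in CD11cpos libraries, and no groups overlapped. From baseline to CD229neg it did not pass (-0.13 ± 0.09), and Clec4a3 did (-0.33 ± 0.09, adjusted p = 0.028), though not without Cre baseline replicate 1 or 2 or CD229neg replicate 3 (adjusted p up to 0.227). The CD229 step of Clec4a2 was -0.46 ± 0.10 (adjusted p = 0.00108) and its CD11c step -0.80 ± 0.10 (adjusted p = 1.88e-06). Clec4a3 held 53.5, 57.0 and 49.02, then 51.4, 43.1 and 45.9, then 34.3, 35.8 and 37.7 CPM, with a CD229 step that did not pass (-0.20 ± 0.09, adjusted p = 0.167) and a CD11c step of -0.38 ± 0.10 (adjusted p = 0.00667). The latter was lost without CD229pos replicate 1 (-0.27, adjusted p = 0.0698) and within PE150 libraries (-0.28). Within tagged libraries the Clec4a2 steps were -0.46 and -0.71, both called. Between the untagged libraries, 1 in each gate, the Clec4a2 steps were -0.43 and -0.99. The Clec4a3 CD11c step was -0.56 there, with no spread within a gate. The difference between the CD11c steps of Cre cells, 6 weeks minus 5 weeks, was -2.16 ± 0.19 for Clec4a2 (adjusted p = 1.24e-10), -1.35 ± 0.16 for Clec4a3 (adjusted p = 1.13e-07) and 0.57 ± 0.18 for Clec7a (adjusted p = 0.0341), fitted over 49 libraries in a comparison chosen after seeing the data. It called 3 of 7 genes, against 11.2% of all genes. The 5-week gates were also restricted to Clec7a-positive cells and the 6-week gates were not, so week and gate cannot be told apart. The Clec7a call was lost without 9 of the 12 libraries (0.38 to 0.58, adjusted p up to 0.199), and held without Clec7apos CD229pos replicate 3 of 5 weeks and CD229pos replicate 2 or CD11cpos replicate 3 of 6 weeks. It was also lost with DESeq2 (adjusted p = 0.057).

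**Figure D2:**
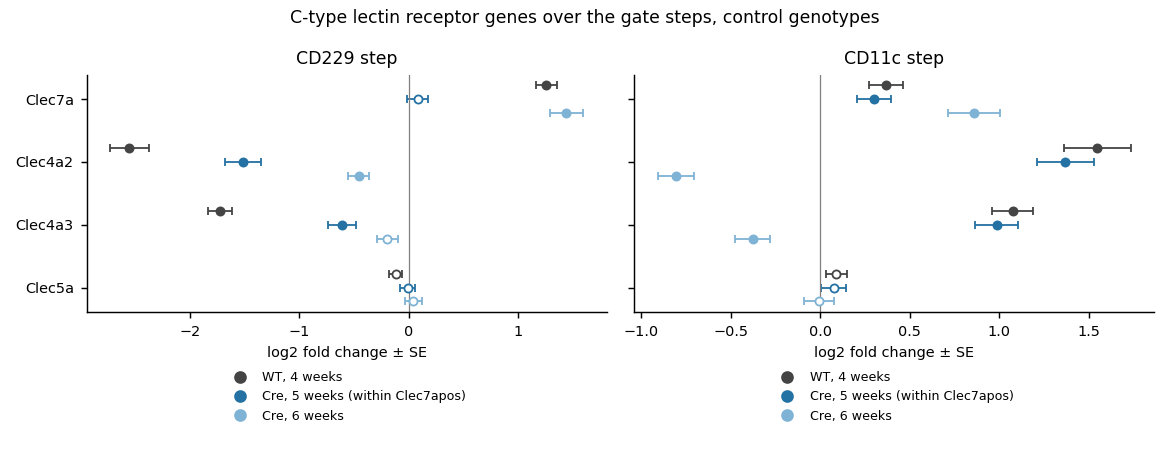
Log2 fold changes (points, bars for SE) of 4 genes over the CD229 and CD11c steps in WT cells at 4 weeks and Cre cells at 5 and 6 weeks, filled where the adjusted p passes 0.05. At the CD11c step Clec4a2 is 1.55 and 1.37 higher at 4 and 5 weeks and 0.80 lower at 6 weeks, while Clec5a stays within 0.12 of 0.

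Without Trem2 the CD229 step of both genes was shallow. Clec4a2 in Trem2KO was 49.8, 63.8 and 47.4 CPM at baseline, 45.5, 48.0, 45.6 and 42.3 in CD229neg and 27.98, 26.9, 26.4 and 21.6 in CD229pos libraries, so the last group stood above every WT CD229pos library. Clec4a3 was 59.1, 65.3 and 54.8, then 53.9, 51.3, 54.2 and 53.1, then 47.0, 42.3, 44.4 and 40.1 CPM. The CD229 step was -0.83 ± 0.12 for Clec4a2 and -0.31 ± 0.08 for Clec4a3 (adjusted p = 7.48e-06 and 0.0038), less than in WT by 1.73 ± 0.22 and 1.42 ± 0.13 (Trem2KO minus WT, adjusted p = 3.04e-06 and 3.28e-08). In CD229pos cells Trem2KO exceeded WT by 1.84 ± 0.17 and 1.75 ± 0.10 (adjusted p = 1.44e-09 and 1.10e-13). In CD229neg cells Clec4a3 was 0.33 ± 0.09 higher (adjusted p = 0.00658) and Clec4a2 did not pass (0.11 ± 0.13, adjusted p = 0.579). At baseline the differences were -0.14 ± 0.13 and -0.06 ± 0.09, neither called. Cd79b was also higher in Trem2KO CD229pos cells (24.3 against 11.2 CPM, 1.04 ± 0.14), and its step differed by 0.87 ± 0.19; its part was not tested.

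Mef2aKO cells showed the same dip as Cre cells. Clec4a2 was 50.9 and 56.0 CPM in Clec7aneg, 18.8, 19.8 and 17.5 in Clec7apos, 6.17, 8.31 and 9.20 in Clec7apos CD229pos and 18.2, 15.7 and 22.0 in triplepos libraries. Its steps were -1.49 ± 0.15, -1.24 ± 0.17 and 1.21 ± 0.16, those of Clec4a3 -1.17 ± 0.12, -0.86 ± 0.13 and 1.12 ± 0.12, each called (adjusted p at most 2.88e-04). The 3 gates called 4 (Clec7a itself included), 2 and 2 of 7 genes, against 45.8%, 0.47% and 10.7% of all genes. Differences from the Cre steps did not pass the test for either gene (-0.41 ± 0.20, 0.27 ± 0.24 and -0.16 ± 0.23 for Clec4a2, adjusted p at least 0.427). From baseline to Clec7aneg, Clec4a3 changed by -0.38 ± 0.11 (adjusted p = 0.0343), a call lost without Mef2aKO baseline replicate 1 or 3 or either Clec7aneg library (adjusted p up to 0.322), and Clec4a2 did not pass (-0.17 ± 0.13). Clec4a3 was higher in Mef2aKO at baseline in all 3 libraries (82.8, 79.0 and 82.6 against 68.3, 65.8 and 62.7 CPM) without passing (0.31 ± 0.10, adjusted p = 0.0747). It passed in Clec7aneg cells (58.5 and 66.0 CPM, 0.52 ± 0.12, adjusted p = 0.00382), though not without Mef2aKO replicate 2 (0.42, adjusted p = 0.105). It also passed in baseline CD229pos cells against ungated Cre cells (90.2 and 85.9 CPM, 0.45 ± 0.09, adjusted p = 0.015), but not without Cre baseline replicate 2 (adjusted p = 0.0701) or CD229pos replicate 1 (0.206).

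Libraries labelled Egr2KO held less of both genes in CD229pos cells at 6 weeks: Clec4a2 25.0, 21.5 and 25.1 CPM and Clec4a3 35.5, 28.9 and 31.9, each below every Cre library. The differences were -0.69 ± 0.10 (adjusted p = 4.76e-04) and -0.50 ± 0.10 (adjusted p = 0.00693), 2 of 7 genes called, against the 2.46% of all genes given above. The Clec4a3 call was lost without Egr2KO CD229pos replicate 2 (-0.42, adjusted p = 0.0795) and with only the 2 groups in the fit. Within PE150 libraries both were called (-0.69 and -0.51). The untagged libraries, 1 of each genotype in this gate, gave -0.71 and -0.50, with no spread within a group. In CD229neg the differences were -0.08 ± 0.10 and 0.04 ± 0.10, in CD11cpos -0.39 ± 0.11 and -0.22 ± 0.10, none called (adjusted p at least 0.171). The CD229 step was -1.07 ± 0.10 for Clec4a2 and -0.74 ± 0.10 for Clec4a3 in Egr2KO (adjusted p = 4.18e-08 and 3.77e-06), but its difference from Cre did not pass (-0.61 ± 0.14 and -0.55 ± 0.14, adjusted p = 0.822 and 1). In that comparison edgeR called 0 of 13187 genes, and DESeq2, with its own filter on genes, also called 0. An unadjusted edgeR p under 0.05 was found for 545 of the 13187, a share below 0.05. The CD11c step of Clec4a2 in Egr2KO was -0.50 ± 0.11 (adjusted p = 0.00314).

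**Figure D3:**
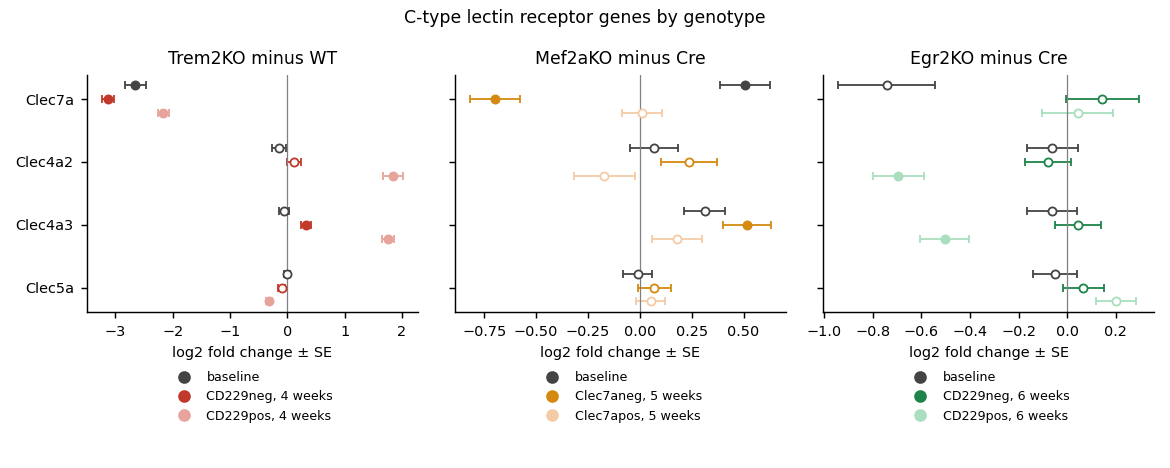
Log2 fold changes (points, bars for SE) of 4 genes between each knockout label and its control in 3 populations, filled where the adjusted p passes 0.05; the axes differ between panels. Clec7a lies at -2.16 to -3.14 in all 3 Trem2KO comparisons, and Clec4a2 and Clec4a3 lie at 1.84 and 1.75 in CD229pos cells.

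Clec4a1 was low. Over the 28 group means it correlated with Clec4a2 at 0.663, with Clec4a3 at 0.704 and with Clec7a at -0.481. Its group means ran from 1.74 to 11.4 CPM, and all 27 pairs of neighbouring groups overlapped. It was called lower in Cre Clec7aneg cells against baseline (-0.83 ± 0.30, adjusted p = 0.0323), higher at the 6-week CD229 step of Cre (0.95 ± 0.30, adjusted p = 0.0289; 5.08, 7.11 and 5.31 against 13.5, 13.8 and 7.00 CPM) and lower at the 6-week CD11c steps of Cre (-0.99 ± 0.30, adjusted p = 0.0226) and Egr2KO (-1.31 ± 0.34, adjusted p = 0.0117). Each of these calls was lost on leaving out any of several libraries. Among them were Cre baseline replicate 1 and Clec7aneg replicates 2 and 3 at 5 weeks (-0.56, -0.60 and -0.91), and Cre CD229pos replicates 1 and 2 at 6 weeks (0.79 and 0.80 at the CD229 step, -0.81 and -0.82 at the CD11c step). Others were Cre CD229neg replicates 1 and 3 (0.92 and 0.87), Cre CD11cpos replicates 1 and 2 (-0.79 and -0.94), Egr2KO CD229pos replicate 3 (-0.95) and Egr2KO CD11cpos replicates 1 and 2 (-1.25 and -1.16). Border macrophage markers summed to 77.7 to 192.5 CPM in the Cre CD229pos libraries of 6 weeks and to 31.3 to 45.6 in the CD229neg ones; over the 28 group means the correlation of Clec4a1 with them was 0.0818. Monocyte markers summed to 23.7 to 31.8 CPM in the same CD229pos libraries and 8.08 to 15.1 in the CD229neg ones, without overlap. Of these, Ccr2 was called with Clec4a1 in the 3 Cre comparisons (-1.06 ± 0.28 from baseline at 5 weeks, 1.39 ± 0.32 and -1.06 ± 0.32 at the 6-week steps), while Ly6c2 and Chil3 had group means of at most 0.411 CPM. The part of border macrophages and of monocytes in the Clec4a1 changes was not tested.

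Clec5a was the steadiest of the expressed genes. Its libraries ran from 83.1 to 129.9 CPM and its group means spanned 1.43-fold. It changed at the CD229 step of Trem2KO, from 114, 110.3, 104 and 112 to 91.8, 87.5, 90.6 and 83.1 CPM (-0.34 ± 0.05, adjusted p = 1.20e-05), the lowest group of the series. There it was also below WT CD229pos cells (100.9, 100.8 and 114 CPM; -0.32 ± 0.06, adjusted p = 2.74e-05). In the other 32 two-group comparisons it was not called; edgeR gave -0.12 ± 0.06 at the WT CD229 step (adjusted p = 0.103), and the difference between the 2 genotypes' steps was -0.22 ± 0.08 (adjusted p = 0.0591), called with DESeq2 (adjusted p = 0.0179) and with DESeq2's size factors (0.0308). In the 6-week CD229 steps, same-numbered libraries deviated from their group means alike. Replicate 1 of each of these gates is untagged and replicates 2 and 3 carry the PE150 tag, so number and tag cannot be told apart. There a replicate block nested in genotype called Clec5a higher in Egr2KO (0.18, adjusted p = 0.0388, against 0.115 without it).

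**Figure D4:**
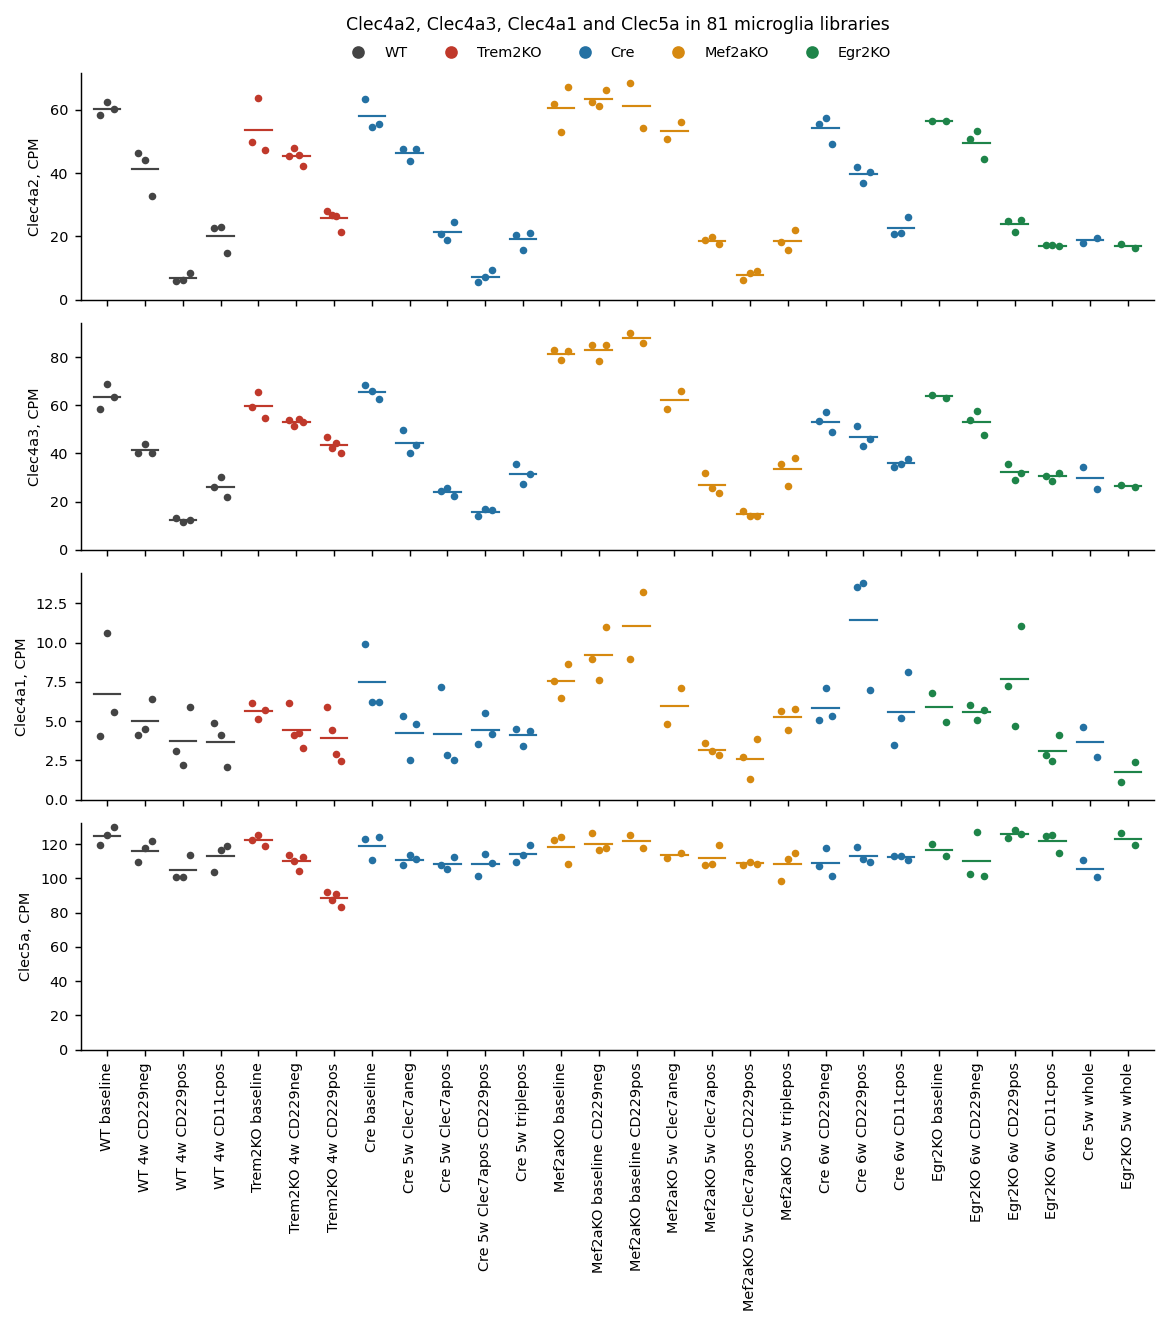
CPM (linear axes from 0) of Clec4a2, Clec4a3, Clec4a1 and Clec5a in the 81 libraries, by group, with bars for means and colours for genotypes. Clec4a2 and Clec4a3 dip together in the CD229pos groups of 4 and 5 weeks, Clec4a1 stays at or below 13.8 CPM with overlapping groups, and Clec5a stays between 83.1 and 129.9.

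Clec12a, an inhibitory receptor for uric acid crystals, was rare (at most 97 counts in a library and 0 in 7) and moved with border macrophage markers. Cre CD229pos libraries at 6 weeks held the most, 6.70, 9.17 and 5.33 CPM, against 1.04, 1.39 and 1.14 in CD229neg, a step of 2.54 ± 0.50 (adjusted p = 6.54e-04); in Egr2KO the step was 1.88 ± 0.58 (adjusted p = 0.0164), lost without CD229neg replicate 2 or CD229pos replicate 3 (1.76 and 1.65). Within PE150 libraries both steps were called (2.52 and 2.17). Between untagged libraries, 1 in each gate, they were 2.65 and 1.45, with no spread within a gate. In Trem2KO CD229neg cells there were 2 counts in 4 libraries, against 42 in CD229pos cells, a ratio of 20.9 (5.44 to 178, 95% exact interval of counting error only), and against 24 in WT CD229neg cells, a ratio of 16.2 (4.03 to 142). Both differences passed the test (adjusted p = 0.0121 and 0.0427). The former was lost without Trem2KO CD229pos replicate 1 (adjusted p = 0.0577), the latter without WT CD229neg replicate 3 or Trem2KO CD229neg replicate 1, 3 or 4 (adjusted p up to 0.462). Libraries labelled Mef2aKO held less Clec12a than Cre at baseline (0.0872, 0.0971 and 0.499 against 4.92, 2.59 and 1.09 CPM; -3.54 ± 0.61, adjusted p = 2.87e-04), a call lost with only the 2 groups in the fit (adjusted p = 0.055). In Mef2aKO Clec7aneg cells it was at 0 in both libraries, at least 7.14-fold lower than in Cre (41 counts) against a floor of 3 counts over the group, and at least 5.16-fold lower than in Mef2aKO Clec7apos cells (25 counts). The test called both (adjusted p = 0.00787 and 0.00346), the former not without either Mef2aKO Clec7aneg library (adjusted p = 0.122 and 0.0827). In Clec7apos CD229pos cells the difference from Cre was -2.12 ± 0.62 (adjusted p = 0.0384, the only call among 7), lost without Cre replicate 2 or 3 or Mef2aKO replicate 2 or 3 (adjusted p up to 0.208).

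The 8 border macrophage markers stood in the same order. They summed to 6.62 to 10.9 CPM in Trem2KO CD229neg libraries, where up to 3 of the 8 were at 0, and to 23.9 to 96.9 in WT CD229neg and 45.9 to 65.3 in Trem2KO CD229pos libraries. In Mef2aKO Clec7aneg libraries they summed to 1.97 and 3.91 CPM, with up to 5 of 8 at 0, against 11.0 to 14.3 in Cre. At baseline they summed to 5.05 to 12.98 in Mef2aKO and 10.7 to 71.2 in Cre libraries. Across the 28 groups the mean log2 level of Clec12a followed the summed markers with r = 0.889, against 0.525 for Clec7a and -0.424 for Clec4a2. Monocyte markers moved in some of these comparisons too: Ccr2 was lower in Mef2aKO than in Cre baseline cells (7.16 against 20.8 CPM, -1.54 ± 0.29) and higher at the 6-week CD229 step of Cre (9.06 to 24.2 CPM, 1.39 ± 0.32). The monocyte sums were 6.61 to 10.4 in Mef2aKO and 9.93 to 34.6 CPM in Cre baseline libraries, and 6.39 to 9 in Mef2aKO and 11.3 to 17.1 in Cre Clec7aneg libraries. The part of border macrophages and monocytes in the Clec12a results was not tested.

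Clec4n (Dectin-2) was rarer still, with at most 32 counts in a library and 0 in 13. In Cre cells at 5 weeks it had 18 counts at baseline, 2 in Clec7aneg and 22 in Clec7apos libraries, ratios of 9.2 (2.2 to 81.7) and 13.8 (3.39 to 121). Both were called (adjusted p = 0.0443 and 0.0091), the former not without Cre baseline replicate 1 or 2 or Clec7aneg replicate 1 or 3 (adjusted p up to 0.382) nor with a replicate block (0.05), the latter not without Clec7apos replicate 1 (adjusted p = 0.114). Border macrophage markers moved with these too, from 10.7 to 71.2 CPM through 11.0 to 14.3 to 62.8 to 105 CPM; their part was not tested. Clec4d and Clec4e, the pair that senses mycobacterial and damage-derived glycolipids, gave 89 and 55 counts over all 81 libraries, with 41 and 52 libraries at 0. The largest single values were 14 counts of Clec4d in a Mef2aKO triplepos library and 5 of Clec4e, too few for any comparison.

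**Figure D5:**
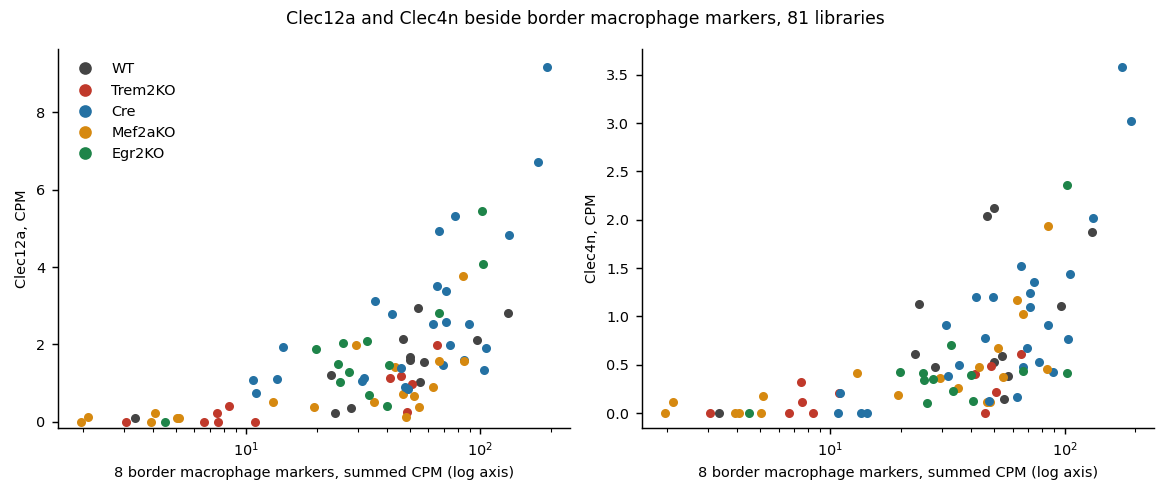
Clec12a (left) and Clec4n (right) in CPM against the summed CPM of 8 border macrophage markers (log axis) in the 81 libraries, coloured by genotype. Libraries with low marker sums hold little of either gene, and the highest Clec12a values, 9.17 and 6.70 CPM, belong to the libraries with the highest sums.

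Compared per transcript length, by the deposited TPM, the order of the genes turned over between resting and reactive cells. Clec4a3 had the highest level of the 9 in 9 groups, among them all baseline groups, and Clec7a in the other 19. WT baseline cells held 76.8 TPM of Clec4a3, more than of Clec5a, Clec4a2 and Clec7a in that order, and WT CD11cpos cells 501 TPM of Clec7a. In Trem2KO, Clec4a3 still led in CD229neg cells (63.4 TPM), and Clec7a led in CD229pos cells (95.9 TPM). Clec4a3 also led in Mef2aKO Clec7aneg cells on cuprizone (73.2 TPM). Group means ran from 2.97 to 501 TPM for Clec7a, 13.6 to 106 for Clec4a3, 3.84 to 38.7 for Clec4a2 and 35.0 to 50.9 for Clec5a. The TPM tables list other RefSeq transcripts of Clec7a, Clec4a2, Clec4a3 and Clec5a than the count tables, so levels between genes carry that uncertainty. The deposited TPM of a library total 490797 to 513360, less than the scale's name implies, so levels are comparable within and between these tables only. Computed from the counts, TPM came out higher (962.5 for Clec7a in WT CD11cpos and 153.9 for Clec4a3 in WT baseline cells). By TPM computed from the counts, as by the deposited TPM, Clec7a exceeded Clec5a in 21 of 28 groups. Clec7a was not set against Clec4a3 in this way, so the change of the leading gene was not checked by it.

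The 12 signaling partners of these receptors, a list of adaptors, kinases, phosphatases and the Card9 complex, all passed the filter in each of the 5 fits. At the WT CD229 step 5 rose and 5 fell (24.6% and 24.2% of all genes). The adaptors Hcst (DAP10, 1.05 ± 0.21), Tyrobp (0.55 ± 0.09) and Fcer1g (0.51 ± 0.08) rose, and Syk (-0.50 ± 0.06) and Card9 (-0.26 ± 0.10) fell. In CPM, Hcst went from 8.58 to 17.4, Tyrobp from 208 to 299 and Syk from 359.9 to 250.1. The Clec7a gate of Cre cells gave 3 that rose and 2 that fell (20.9% and 17% of all genes), again Hcst (0.92 ± 0.14), Tyrobp (0.75 ± 0.09) and Fcer1g (0.56 ± 0.09) against Syk (-0.35 ± 0.06), while Card9 did not pass (-0.24 ± 0.11). In Trem2KO CD229pos cells 5 were below WT and 2 above it (26.5% and 26% of all genes): Hcst (-0.86 ± 0.19), Tyrobp (-0.63 ± 0.08) and Fcer1g (-0.63 ± 0.08) were lower and Syk (0.51 ± 0.05) higher, and Card9 did not pass (0.16 ± 0.09). In these 3 comparisons the adaptors that moved went in the direction of Clec7a, and Syk in the other. The list's medians were -0.07, -0.02 and -0.01 in these 3 comparisons, beside -0.01, 0.00 and 0.01 over all genes. The Syk step differed between Trem2KO and WT by 0.38 ± 0.07 (adjusted p = 8.60e-04). Not every comparison that called Clec7a called a partner. For Trem2KO against WT at baseline, and in the diet steps of Trem2KO and Mef2aKO, 0 of 12 were called (0.577%, 7.28% and 7.85% of all genes). The WT diet step called 5 higher and 1 lower (18.8% and 11.7%). At the WT CD11c step 3 were higher and 4 lower (11.8% and 11.5%).

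Of 20 other C-type lectin receptor genes, 13 passed the filter in the 4-week fit. From WT baseline to CD229neg cells 6 rose and 1 fell (18.8% and 11.7% of all genes). Colec12, a scavenger collectin, went from 1.01 to 30.8 CPM (4.92 ± 0.40) and Cd69, an early activation receptor, from 0.46 to 2.12 (2.18 ± 0.46), while Clec4a4 was the one that fell (1.24 to 0.265, -2.11 ± 0.78). At the CD229 step 4 rose (24.6% of all genes), led by Colec12 (2.16 ± 0.23, to 136 CPM), Cd69 (1.55 ± 0.34) and Mrc2, a collagen receptor (1.17 ± 0.11, from 291 to 645 CPM). In Trem2KO CD229neg cells 9 of the 13 were below WT (13.1% of all genes), Colec12 at 0.273 CPM (-6.74 ± 0.47), Clec10a at 0.0532 against 3.75 CPM and Cd209a at 0 in all 4 libraries against 1.01 CPM among them. Clec10a and Cd209a are known from border macrophages and dendritic cells; the border macrophage sums of these libraries are given above, and their part was not tested. In Trem2KO CD229pos cells 4 of the 13 were below WT and 2 above it (26.5% and 26% of all genes). Colec12 (1.4 against 136 CPM, -6.54 ± 0.31) and Mrc2 (136 against 645 CPM, -2.31 ± 0.10) were again lower there. Like Clec7a, both were thus lower in both Trem2KO gates. The list's median was -0.92 in CD229neg and -0.21 in CD229pos cells, beside -0.01 and 0.01 over all genes. Olr1 (LOX-1, the receptor for oxidised LDL) and Mrc2, named over all CD11c steps after their values were seen, moved in opposite directions there. Olr1 rose by 1.60 ± 0.22 in WT, 1.26 ± 0.19 and 1.01 ± 0.21 in Cre and Mef2aKO at 5 weeks and 0.94 ± 0.25 and 1.06 ± 0.29 in Cre and Egr2KO at 6 weeks. Mrc2 fell at the same 5 steps, by 1.22 ± 0.11, 0.92 ± 0.10, 0.67 ± 0.10, 0.34 ± 0.12 and 0.43 ± 0.12 on the log2 scale.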

How the data were processed

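Gene counts and TPM values (counts scaled for transcript length and library) of 81 libraries of sorted microglia were taken from tables the authors deposited. Per the submitters' processing notes, reads were handled with tools that include HOMER 4.11, STAR 2.7.0f, fastp 0.20.0 and DESeq2 on build mm10 (GRCm38); the role of each is not given in the sources used here. Counts were deposited raw, one transcript per gene, per the file headers. The listed transcript of Clec7a, Clec4d and Clec4n was not the same in all count tables, so their levels between tables carry that uncertainty. The deposited TPM tables list other transcripts for 4 of the genes described, and the TPM were used only to set levels of genes side by side. The depth was 4387075 to 13972985 counts per library. CPM is a gene's count scaled to its library's total. The 2 tables of 4 weeks were joined where shared WT baseline counts were identical (24910 genes, with 214 left out).

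Counts were tested in edgeR 4.0.16 (R 4.3.3; quasi-likelihood F test, TMM scaling, filterByExpr by group, 1 mean per group) in 5 fits: 4 weeks (12647 genes, 23 libraries), 5 weeks (13204, 29), baseline (12628, 11), 6 weeks (13187, 23) and the whole populations (12387, 4). Each adjusted p is Benjamini-Hochberg over all genes of its fit, called at 0.05, over 42 comparisons of which 8 are differences between 2 steps. Fold changes are log2 with SE. The SE was derived from the test, as the absolute log2 fold change over the square root of its F value. The labels name pooled brains as samples, so p-values measure the spread between pools. Among 80 pairs of replicates none held identical values. Simulated data with known changes, in genes with a mean above 5 CPM, were put through the fit for Trem2KO minus WT in CD229neg cells (12647 genes). It recovered 96 of 100 changes of 2-fold and 100 of 100 of 4-fold. This does not cover rarer genes such as Clec12a and Clec4n, and recovery for the Mef2aKO and Egr2KO labels is not given here. Samples were grouped by their labels. Alternatives were DESeq2 1.42.0 and its size factors, no filter, only the compared groups, a replicate block, the PE150 tag (17 libraries) as a covariate, each library left out, and, chosen after seeing the data, libraries with or without the tag alone. Replicate numbers were checked for pairing in 34 comparisons by the correlation of deviations from group means. It exceeded 0.1 in every pair only for the 6-week CD229 steps (Cre 0.170 to 0.288, Egr2KO 0.121 to 0.176). There the numbers also follow the PE150 tag, and the labels do not say what a number shares. For Egr2KO against Cre in CD229pos cells, which come from different mice, it was 0.0732 to 0.304.

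The 9 genes and all lists were chosen with earlier results of these data known. Named beside them were up to 3 genes of each other list with the largest change past the test, Fcer1g, Tyrobp, Syk and Card9 at any value, and the genes most and least like Clec7a in log2 CPM (prior count 2). Count ratios have 95% exact intervals, and intervals and the floor of 3 counts cover counting error only.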

Additional observations from a re-analysis of the deposited data

Results flagged for a closer look

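Clec12a in Trem2KO CD229neg cells was 0.217 CPM in replicate 2 and 0 in the other 3 libraries, which set replicate 2 apart from its group; that value is 2 counts, and any group of 4 with counts in a single library is set apart in this way by construction. The remaining results here are steps whose size differed between groups by a test of the difference. The CD229 step at 4 weeks was higher in Trem2KO than in WT by 0.97 for Clec7a, 1.73 (1.725) for Clec4a2 and 1.42 for Clec4a3 on the log2 scale. Of the steps at 5 weeks, Clec7a rose less from baseline in libraries labelled Mef2aKO than in Cre (-1.21) and more across the Clec7a gate (0.71). That gate sorts on the gene's own protein, so the value of 0.71 is a description only. Between 6 and 5 weeks the CD11c step of Cre cells differed by 0.57 for Clec7a, -2.16 for Clec4a2 and -1.35 for Clec4a3, in gates that also differ in the Clec7a sort.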

How the results depend on the processing

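No result changed direction past the test. Over settings other than leaving out a library, Clec7a kept its direction and call in 257 of 264, the other genes in 1421 of 1508, and the number called stayed within 1.5 times in 241 of 264. Over single libraries left out, Clec7a kept both in 271 of 309, with 19 calls lost, 2 gained and 17 uncalled values that changed sign. The other genes did so in 1641 of 1836, with 48 calls lost, 15 gained and 132 uncalled values that changed sign. The number called stayed within 1.5 times in 279 of 309. Clec7a passed without a filter in the CD11c step of Mef2aKO (0.21) and in Egr2KO baseline (-0.74), the latter also with DESeq2 (-0.75). It no longer passed with only the compared groups at Mef2aKO baseline (0.50) or in the CD11c step of 6 against 5 weeks (0.56, and 0.57 with DESeq2). Without tagged libraries the baseline CD229 step, with 1 library in each gate, was 1.12. The number called went from 0 to 1 for the diet step of Trem2KO against WT without a filter, with DESeq2 or with a replicate block; without a filter from 2 to 5 in the CD11c step of Mef2aKO, from 1 to 2 in the Clec7a step of Mef2aKO against Cre and from 0 to 2 in Egr2KO baseline (1 with DESeq2). In the baseline CD229 step it went from 1 to 2 without a filter, with DESeq2 and with only the compared groups, which gave 1 for the diet step of Mef2aKO, 0 for Mef2aKO baseline and 1 for Egr2KO CD229pos, against 2 each. Tagged libraries alone gave 2 of 4 calls in the 6-week CD11c step of Cre. Untagged libraries alone left 1 library in each 6-week gate and each baseline CD229 gate, so their numbers called are not given. With the tag as covariate the 6-week diet step of Cre gave 1, against 2.

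Leaving out each library in turn, Clec7a ranged from 0.30 to 0.41 in the WT CD11c step, 0.24 to 0.34 in that of Cre at 5 weeks, 0.32 to 0.60 at Mef2aKO baseline, 0.63 to 0.79 in the Clec7a step of Mef2aKO against Cre, 1.21 to 1.34 in the baseline CD229 step, -1.09 to -0.47 in Egr2KO baseline and 0.38 to 0.73 in the CD11c step of 6 against 5 weeks. Uncalled values ranged from -0.039 to 0.077, -0.056 to 0.071 and -0.20 to 0.0106 for Mef2aKO in the 3 Clec7a-positive gates, -0.062 to 0.061 and -0.22 to 0.0021 for its CD229 and CD11c steps against Cre, -0.028 to 0.16 and -0.32 to 0.030 for Egr2KO CD229pos and CD11cpos and -0.18 to 0.018 for its CD229 step against Cre. Numbers called ranged from 0 to 1 for the diet step of Trem2KO against WT, the Clec7a step of Mef2aKO against Cre, Mef2aKO Clec7apos CD229pos and the baseline CD229 step; from 1 to 2 for the diet steps of Mef2aKO and Egr2KO, Mef2aKO baseline, Mef2aKO baseline CD229pos and Egr2KO CD229pos; and from 2 to 6 and 1 to 3 for the diet steps of Cre at 5 and 6 weeks, 1 to 3 for Mef2aKO Clec7aneg, 2 to 4 for the 6-week CD11c step of Cre and 0 to 2 for Egr2KO baseline. The cause was not tested. With a replicate block Clec7a was 1.44 and 1.34 (1.345) in the 6-week CD229 steps of Cre and Egr2KO, and nested in genotype 1.43 and 1.35; the block changed calls of other genes only: Clec4a3 in the diet step of Trem2KO against WT (0.41), Clec5a in its CD229 step (-0.22), Clec12a (-1.22) and Clec4n at the 5-week diet step of Cre, and Clec4a1 in the Clec7a (-0.92) and CD11c (0.98) steps of Mef2aKO. By Spearman's rho, 1 of the 5 genes most like Clec7a was the same. Depth limits Clec12a, Clec4n, Clec4d and Clec4e, at a median of 1.29 CPM or less.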
